A study of Mus musculus with 6 samples.

Results

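The tachykinin system was examined in the frontal cortex of C57BL/6 mice, in its medial prefrontal part. The genes were taken by name from the deposited expression tables as the peptide precursor genes Tac1 and Tac2 and the receptor genes Tacr1 and Tacr3, which makes 4 of the 19943 genes listed there. RNA sequencing compared 3 control libraries with 3 libraries of mice that were isolated for 3 weeks after weaning, here named control 1 to 3 and isolated 1 to 3. The sample labels give an age of 6 weeks for both groups, while the design text gives 7 weeks, and the labels do not say how control mice were housed. The labels name no separate animals, so the p-values rest on the spread between libraries, which may be technical only. Each library held 18226448 to 18606573 expected counts, and the cortical neuron genes Slc17a7 (1563 to 1984 CPM) and Tbr1 (151 to 201 CPM) were present in all 6. CPM is the count scaled to a common, normalized library size.

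Tachykinins are short neuropeptides that are cut from larger precursor proteins and share an amidated carboxyl end of phenylalanine, a variable residue, glycine, leucine and methionine. Tac1 encodes substance P and neurokinin A, and Tac2 encodes neurokinin B. Substance P acts mainly on the receptor NK1, encoded by Tacr1, and neurokinin B mainly on NK3, encoded by Tacr3, both of which signal through Gq proteins and phospholipase C. Tac1 is abundant in the projection neurons of the striatum that carry the dopamine receptor D1, whereas in the cortex tachykinins come mostly from sets of inhibitory neurons. Tac2 is known as a peptide that prolonged social isolation induces in the brain of adult mice, which is the question the comparison of housing bears on here.

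The stretches that encode the 3 peptides are shown because one gene-level count of Tac1 covers 2 of them. They were read 5′ to 3′ from the coding strand of the GENCODE M21 transcripts (GRCm38), with the 15 bases for the shared carboxyl end in capitals.
substance P (Tac1): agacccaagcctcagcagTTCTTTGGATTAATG
neurokinin A (Tac1): cataaaacagattccTTTGTTGGACTAATG
neurokinin B (Tac2): gacatgcacgacttcTTTGTGGGACTTATG
In these capitals neurokinin A matched neurokinin B at 13 of 15 bases and substance P at 12 of 15, while substance P matched neurokinin B at 10 of 15. The substance P stretch lay in 4 protein-coding transcripts of Tac1 and the neurokinin A stretch in 2 of these. Both RefSeq transcripts that the files count for Tac1 held both stretches, so the values below do not separate the peptides.

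Tac1 varied more between libraries of one group than between the groups. It stood at 19.6, 63.3 and 7.20 CPM in control 1, 2 and 3 and at 13.03, 11.4 and 47.3 CPM in isolated 1, 2 and 3. Each group held 1 library far above its others, control 2 and isolated 3, and the groups overlapped over most of their range. The highest library exceeded the lowest 8.79-fold, and both were controls. The control mean was 30.0 ± 29.5 CPM and the isolated mean 23.9 ± 20.3 CPM (SD, n = 3), with a difference in log2 of -0.33 (SE 0.80, 95% interval -2.19 to 1.53, edgeR adjusted p = 0.999). In folds this interval runs from 0.220 to 2.89. Without control 2 the log2 difference was 0.84 and without isolated 3 it was -1.30, so the sign rested on single libraries. It was -0.032 without isolated 1 and 0.0079 without isolated 2. The gene Tac1 (Entrez 21333) spans 7555061 to 7562978 of chromosome 6 in GRCm38.

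Tac2 was the steadiest of the family and its group means were close. It was measured at 4.05, 4.14 and 5.33 CPM in control 1, 2 and 3 and at 4.99, 4.89 and 3.89 CPM in isolated 1, 2 and 3. The lowest library was an isolated one and the highest a control, and the ratio between them was 1.37. The control mean was 4.51 ± 0.715 CPM and the isolated mean 4.59 ± 0.612 CPM (SD, n = 3). The log2 difference of 0.026 (SE 0.17) had a 95% interval of -0.37 to 0.42, that is, from 0.776-fold to 1.34-fold (edgeR adjusted p = 0.999). A larger induction of Tac2 in this tissue lies outside this interval, which covers these libraries only. Between 73 and 97 reads supported each value. The spread over the 6 libraries was 1.44 times the variance that counting alone gives, against 357 times for Tac1. Its sign turned without control 1 (-0.045), control 2 (-0.030), isolated 1 (-0.038) or isolated 2 (-0.022). Tac2 (Entrez 21334) spans 127724478 to 127731768 of chromosome 10.

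**Figure D1:**
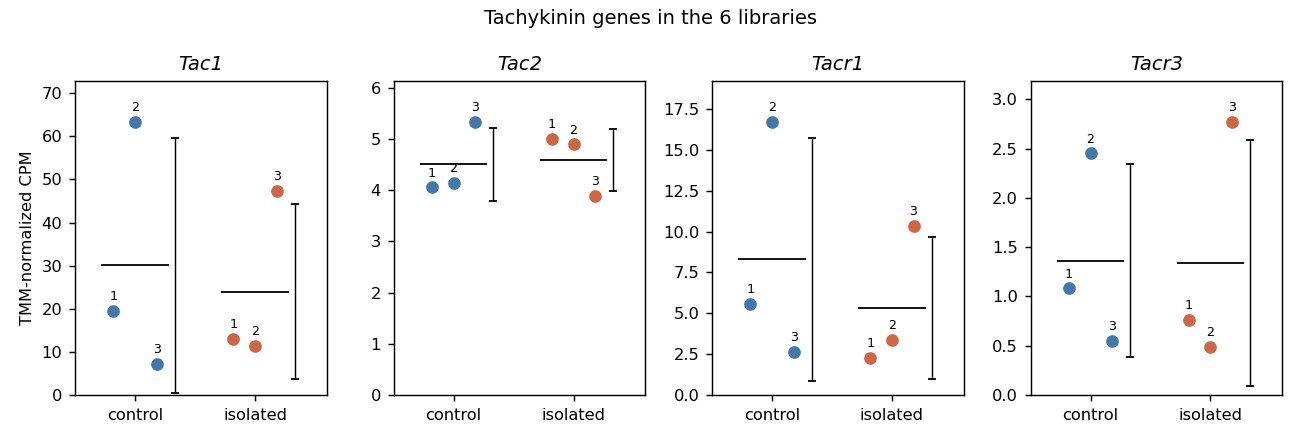
TMM-normalized CPM of Tac1, Tac2, Tacr1 and Tacr3 in the 3 control and 3 isolated libraries; each point is 1 library with its replicate number, the line is the group mean, the bar beside it the SD, and each panel has its own vertical scale from 0. Control 2 and isolated 3 stand high for Tac1 (63.3 and 47.3 CPM), Tacr1 and Tacr3 but not for Tac2, and the groups overlap in all 4 panels.

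Tacr1, the substance P receptor gene, was high in the same libraries as Tac1. It stood at 5.57, 16.7 and 2.64 CPM in control 1, 2 and 3 and at 2.28, 3.37 and 10.3 CPM in isolated 1, 2 and 3. Both groups held 1 high library, overlapped widely, and had their lowest values close together. The ratio of the highest to the lowest library was 7.33. The control mean was 8.31 ± 7.43 CPM and the isolated mean 5.33 ± 4.37 CPM (SD, n = 3), with a difference in log2 of -0.64 (SE 0.74, 95% interval -2.35 to 1.08, edgeR adjusted p = 0.999). It was 0.38 without control 2 and -1.56 without isolated 3. The expected counts of Tacr1 were not whole numbers, unlike those of the other 3 genes, so part of its reads also matched elsewhere and were shared out by the authors' counting. Tacr1 (Entrez 21336) spans 82402003 to 82560104 of chromosome 6.

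Tacr3, the neurokinin B receptor gene, was the scarcest of the 4 and did not follow its ligand gene. It stood at 1.08, 2.45 and 0.550 CPM in control 1, 2 and 3 and at 0.760, 0.489 and 2.77 CPM in isolated 1, 2 and 3. These values rest on 9 to 52 reads per library, and their spread was 13.7 times the counting variance. The libraries with the most Tacr3, isolated 3 and control 2, were among the 3 with the least Tac2. The control mean was 1.36 ± 0.981 CPM and the isolated mean 1.34 ± 1.25 CPM (SD, n = 3), with a difference in log2 of -0.018 (SE 0.72, 95% interval -1.69 to 1.65, edgeR adjusted p = 0.999). It was 0.72 without control 2, 0.26 without isolated 1, 0.38 without isolated 2 and -1.12 without isolated 3. Tacr3 (Entrez 21338) spans 134829007 to 134934581 of chromosome 3.

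The remaining relatives were at the edge of detection. Tac4, which encodes hemokinin, had 3 reads in control 2 and 0 in the other 5 libraries, where a count of 0 allows up to 0.165 CPM. Tacr2, the gene of the neurokinin A receptor NK2, had between 1 and 5 reads per library. Neither passed the filter on low counts, and no fold was taken. No exon base of the 4 main genes is covered by an exon of another gene on either strand in GENCODE M21.

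In the whole comparison 0 of 4 tachykinin genes passed the threshold, an adjusted p under 0.05, with edgeR's quasi-likelihood test, in a table where 0% of 15169 genes passed in either direction. None of the 4 had an unadjusted p under 0.05, against 535 genes or 3.53% of the table. DESeq2 called 1 gene of the table (331 at an unadjusted p under 0.05) and limma on log2(FPKM + 1) called 0 (526), none of them a tachykinin gene. The groups overlapped for all 4, as they did for most genes, with no overlap for 8.85% of all genes tested. The exact two-sided permutation test of log2 CPM gave p = 1 for Tac1, 1 for Tac2, 0.6 for Tacr1 and 0.9 for Tacr3, where 3 against 3 libraries cannot go below 0.1.

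**Figure D2:**
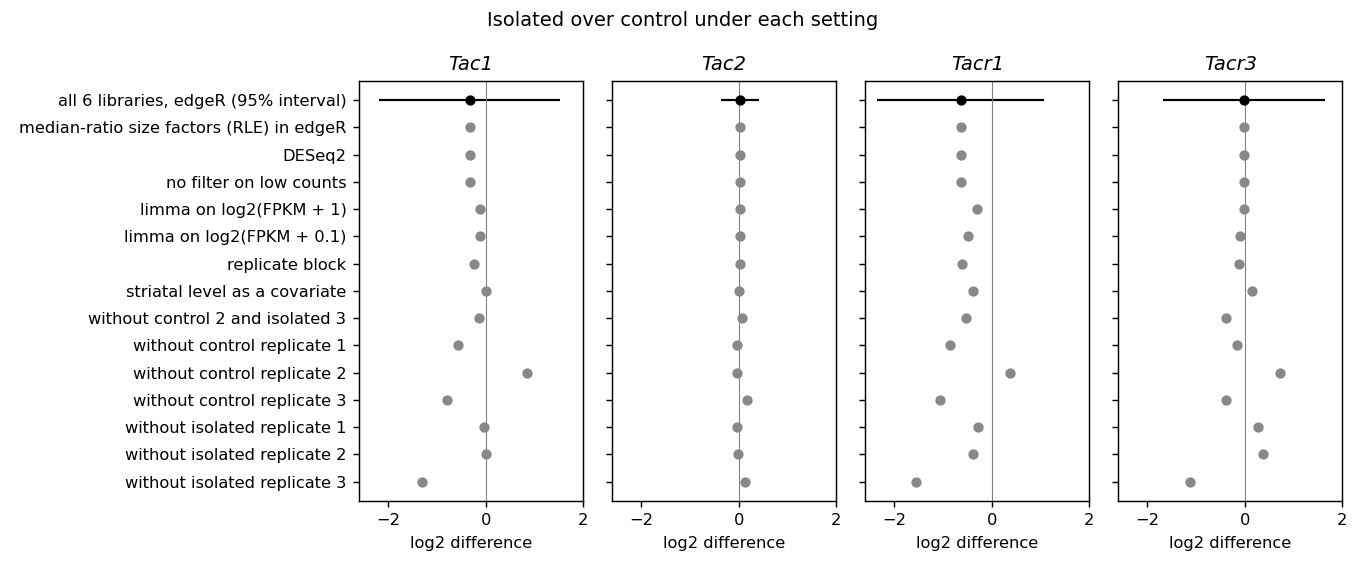
Log2 difference of isolated over control for each gene with edgeR on all 6 libraries (black, with its 95% interval) and under each other setting (grey); the vertical line is 0. For Tac1, Tacr1 and Tacr3 the points move across 0 as single libraries are left out (0.84 for Tac1 without control 2), while all points of Tac2 stay between -0.045 and 0.16.

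Per length, on the deposited FPKM scale, the order was Tac1, Tac2, Tacr1 and Tacr3. Tac1 was at 28.9 ± 28.5 in control and 23.1 ± 19.96 in isolated libraries, Tac2 at 6.71 ± 1.01 and 6.85 ± 0.855, Tacr1 at 1.65 ± 1.49 and 1.06 ± 0.876, and Tacr3 at 0.360 ± 0.262 and 0.357 ± 0.334 FPKM (SD, n = 3). Tac1 exceeded Tac2 in 5 of 6 libraries, by up to 9.82-fold, and lay below it in control 3 at a ratio of 0.868. These first neighbours did not differ beyond their spread (exact two-sided sign-flip permutation test over libraries, p = 0.0625, the same after adjustment over the 3 neighbouring pairs). Tac2 exceeded Tacr1 in 6 of 6 libraries by 1.87-fold to 16.8-fold, and Tacr1 exceeded Tacr3 in 6 of 6 by 2.20-fold to 5.15-fold (exact sign-flip permutation p = 0.0312 for each, the smallest 6 libraries allow, adjusted p = 0.0469).

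The libraries with high Tac1, Tacr1 and Tacr3 were also those with high levels of striatal projection neuron genes. All 13 of 13 striatal markers were listed and tested. Their summed level ranged from 566 to 4250 CPM in control and from 784 to 3116 CPM in isolated libraries, with Ppp1r1b, the gene of the phosphatase inhibitor DARPP-32, at 301, 834 and 108 CPM in control 1, 2 and 3 and at 152, 159 and 622 CPM in isolated 1, 2 and 3. The mean log2 level of these markers, called the striatal level here, was 1.85 above the mean of the 6 libraries in control 2 and 1.44 above it in isolated 3. It was 0.16 above it in control 1 and lay at -0.82 in isolated 1, -0.80 in isolated 2 and -1.83 in control 3. In bulk tissue fewer cells of a type and less RNA per cell cannot be told apart.

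Tac1 rose with the striatal level over the 6 libraries, with Pearson's r = 0.996 (exact permutation p = 0.0028, adjusted over the 4 genes 0.0083) and Spearman's rho = 0.943 (exact permutation p = 0.0167, adjusted 0.0333). Tacr1 gave r = 0.955 (exact permutation p = 0.0042, adjusted 0.0083) and rho = 0.943 (p = 0.0167, adjusted 0.0333). Tacr3 gave r = 0.949 (exact permutation p = 0.0111, adjusted 0.0148) and rho = 0.771 (p = 0.103, adjusted 0.103). Tac2 went the other way, with r = -0.904 (exact permutation p = 0.0208, adjusted 0.0208) and rho = -0.829 (p = 0.0583, adjusted 0.0778), although its whole range was only 1.37-fold. Without control 2 and isolated 3, the libraries farthest from the median striatal level, r was 0.990 for Tac1, -0.947 for Tac2, 0.775 for Tacr1 and 0.772 for Tacr3. None of these 4 passed with the 4 libraries left (exact permutation p = 0.125, 0.125, 0.292 and 0.333). With each group centred on its own mean, r over the 6 libraries was 0.996, -0.904, 0.978 and 0.950 in the same order. How many of all tested genes follow the striatal level as closely was not counted. The relation is therefore not shown to be particular to these 4 genes.

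**Figure D3:**
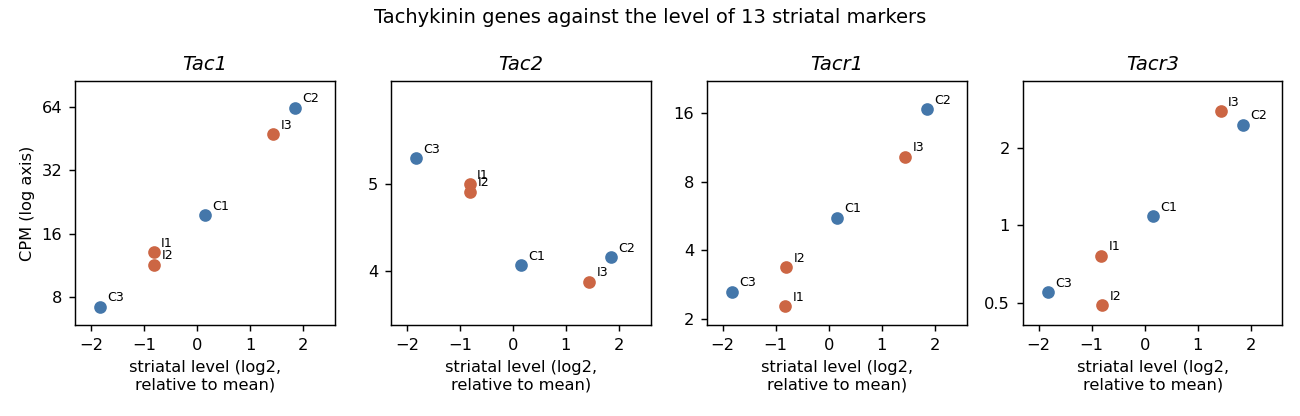
CPM of each gene on a log axis against the striatal level, the mean log2 CPM of 13 striatal markers relative to the mean of the 6 libraries; C is control and I isolated, with replicate numbers, and each panel has its own vertical scale. Tac1 runs along a line (r = 0.996), Tacr1 and Tacr3 rise with more scatter at the low end, and Tac2 slopes the other way within 3.89 to 5.33 CPM.

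With the striatal level as a covariate the differences of Tac1 and Tac2 between the groups were close to 0. The log2 difference of Tac1 was -0.0010 with a 95% interval of -0.24 to 0.24, much narrower than without the covariate, and that of Tac2 was 0.015 (-0.29 to 0.32). That of Tacr3 was 0.15 (-0.51 to 0.81). Tacr1 was left with -0.39 (SE 0.17, interval -0.79 to 0.0074, unadjusted p = 0.0535, edgeR adjusted p = 0.813), which did not pass. With this covariate 938 of 15169 genes had an unadjusted p under 0.05 (edgeR) and 0 passed. In control 3, with the lowest striatal level (-1.83), Tacr1 was at 2.64 CPM. In isolated 1 and isolated 2 (-0.82 and -0.80) it was at 2.28 and 3.37 CPM. These single libraries were not tested against each other. With control 2 and isolated 3 left out, Tacr1 differed by -0.54 in log2 (interval -1.37 to 0.29) and that of Tac1 -0.14 (-0.996 to 0.72).

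The tested gene most like Tac1 over the 6 libraries, among 14266 others with a mean of at least 1 CPM, was Penk, the enkephalin precursor gene (r = 0.999). Next were Pde10a, a striatal phosphodiesterase gene, and Lingo3 (r = 0.999 each). Penk and Pde10a are among the 13 markers of the striatal level. Penk was at 30.8 CPM in control 3 and at 403 CPM in control 2. The ratio of Tac1 to Penk, in FPKM, stayed between 0.214 in control 2 and 0.319 in control 3, a 1.49-fold range. For Tacr1 to Penk the range was 2.34-fold, for Tacr3 to Penk 2.87-fold and for Tac2 to Penk 16.9-fold. Penk was picked for its likeness to Tac1 in these same libraries. The narrow range of its ratio to Tac1 follows in part from that choice. The 3 genes most like Tacr1 were Amotl1, the phospholipase D gene Pld2 and the protocadherin gene Pcdhga9 (r = 0.997, 0.996 and 0.995). Those most like Tacr3 were the protease gene Pcsk7, Raver1 and the synaptic vesicle gene Sv2c (r = 0.998, 0.995 and 0.995). Those most like Tac2 were Ptprn2, Synj1, which encodes synaptojanin, and Sucla2 (r = 0.996, 0.996 and 0.993). Such values are high by selection among so many genes over 6 libraries and are descriptions only.

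Genes that make tachykinins active did not share this spread. Of 7 precursor processing genes 7 were tested and 0 passed in either direction (edgeR; 0 at an unadjusted p under 0.05), with 5 higher and 2 lower in isolated libraries and a median log2 difference of 0.016, against -0.0018 over all 15169 genes tested, of which 49.2% were higher and 50.8% lower. Carboxypeptidase E, Cpe, lay between 1608 and 1713 CPM in all 6 libraries. The convertase gene Pcsk2 was at 580, 541 and 667 CPM in control and 637, 633 and 569 CPM in isolated libraries, and Pcsk1n, which encodes a convertase inhibitor, ranged from 407 to 511 CPM. Across these 7 genes the highest library exceeded the lowest by 1.07-fold to 1.51-fold.

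Of 6 genes for enzymes that degrade tachykinins or related peptides 0 passed (edgeR; 0 at an unadjusted p under 0.05), with 2 higher, 4 lower and a median log2 difference of -0.054. The endothelin-converting enzyme gene Ece1 (75.8 to 91.0 CPM), the prolyl endopeptidase gene Prep (27.0 to 29.1 CPM) and the angiotensin-converting enzyme gene Ace (15.3 to 27.1 CPM) are the most abundant by their means. Mme, named here after its values were seen, encodes neprilysin, a main degrading enzyme of substance P. It stood at 17.0, 39.2 and 7.92 CPM in control 1, 2 and 3 and at 9.01, 9.52 and 26.5 CPM in isolated 1, 2 and 3. Its range of 4.95-fold was the widest of this list, and control 2 and isolated 3 were again highest. Ace was also highest in these libraries (27.1 and 20.8 CPM), but Ece1 and Prep were not.

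Of 17 genes of Gq signalling and receptor desensitization 0 passed (edgeR; 0 at an unadjusted p under 0.05), with 10 higher, 7 lower and a median log2 difference of 0.0105. Prkcb, a protein kinase C gene, lay between 1828 and 1898 CPM, the IP3 receptor gene Itpr1 between 1012 and 1057 CPM, and the arrestin gene Arrb1 between 464 and 500 CPM. The ratio of the highest to the lowest library was at most 1.55 in this list, against 5.66 for Tacr3, 7.33 for Tacr1 and 8.79 for Tac1.

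**Figure D4:**
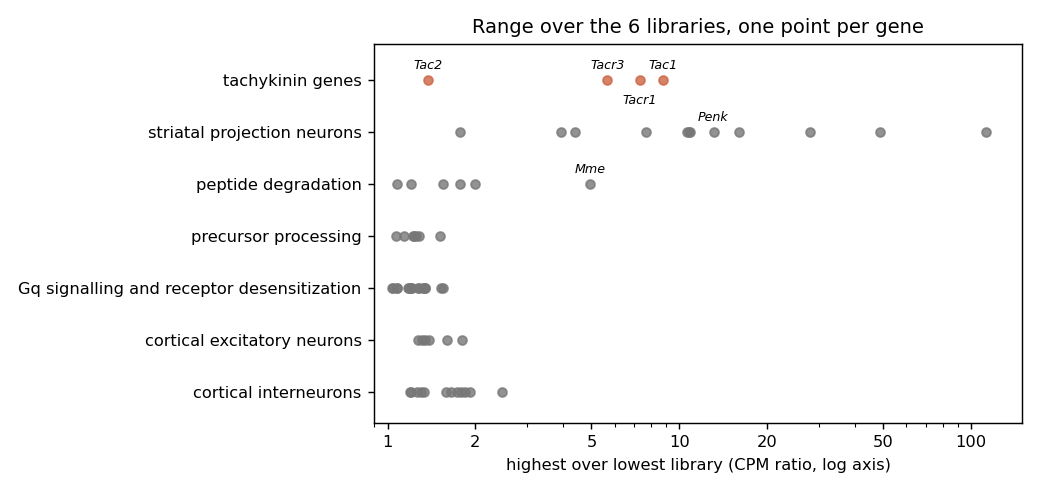
Ratio of the highest to the lowest of the 6 libraries in CPM, on a log axis, with 1 point per tested gene for the tachykinin genes and 6 gene lists; Isl1, a striatal marker at 0 in control 3 and named after its values were seen, has no ratio and is left out. Tac1, Tacr1 and Tacr3 (8.79, 7.33 and 5.66) lie in the range of the striatal markers (1.77 to 113), and Tac2 (1.37) in that of the cortical lists. Lists not drawn reach 9.06 (olfactory bulb), 5.18 (septum) and 2.98 (medial habenula), so wide ratios are not particular to striatal markers.

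Markers of cortical neurons were steadier than the striatal markers. Of 12 interneuron markers 12 were tested and 0 passed (edgeR; 0 at an unadjusted p under 0.05), with 5 higher, 7 lower and a median log2 difference of -0.018. Their summed level was 854 to 1047 CPM in control and 864 to 1015 CPM in isolated libraries. Gad1 and Gad2, which encode the enzymes of GABA synthesis and are also expressed in the striatum, ranged from 306 to 397 CPM and from 175 to 277 CPM, and Sst from 128 to 153 CPM. Gad1 and Gad2 were highest in control 2 (391 and 277 CPM) and isolated 3 (397 and 262 CPM), whereas Sst was highest in isolated 1. Of 6 cortical excitatory neuron markers 0 passed (edgeR; 0 at an unadjusted p under 0.05), with 4 higher, 2 lower and a median log2 difference of 0.036. Slc17a7, the vesicular glutamate transporter gene, was lowest in control 2 (1563 CPM) and isolated 3 (1568 CPM), against 1822 to 1984 CPM in the other 4 libraries. Camk2a was at 4014 and 3813 CPM in these libraries, against 4537 to 4991 CPM.

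Of the 13 striatal markers 0 were higher and 13 lower in isolated libraries, at a median log2 difference of -0.41, and 0 passed (edgeR; 0 at an unadjusted p under 0.05). This direction rested on single libraries: without control 2, 13 were higher and 0 lower (median 0.88), without isolated 1 or isolated 2 the median was -0.077 and -0.066, and without isolated 3 it was -1.58. The most abundant of them, Ppp1r1b, Pde10a and Adcy5, ranged 7.70-fold, 10.6-fold and 3.94-fold between libraries. The part of striatal RNA in the levels of Tac1, Tacr1 and Tacr3 was not tested beyond these values.

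Markers of other regions that neighbour the dissected area or are rich in tachykinins were mostly scarce. Of 4 medial habenula markers Chrnb4, Gpr151 and Pou4f1, the last named after its values were seen, stayed at or under 1.14 CPM in all 6 libraries, while Nwd2 stood at 35.1 to 79.4 CPM; of the 3 tested 2 were higher and 1 lower in isolated libraries (median log2 difference 0.095). The sum over these 4 markers, nearly all of it Nwd2, was 58.8 to 80.6 CPM in control and 36.5 to 65.5 CPM in isolated libraries. With the others so scarce it is no measure of habenular RNA. Of the 3 tested 0 passed. The 5 olfactory bulb markers summed to 8.63 to 25.5 CPM in control and 7.44 to 11.7 CPM in isolated libraries, with Cdhr1 at 17.7 CPM in control 2 and 1.95 to 2.72 CPM elsewhere, Doc2g at 3.36 to 4.49 CPM and Th at 1.52 to 3.25 CPM. Of the 3 tested 1 was higher and 2 lower (median log2 difference -0.15) and 0 passed. Both septal markers were highest in isolated 3, Zic1 at 33.5 CPM against 7.42 to 11.7 CPM elsewhere and Zic4 at 6.44 CPM against 1.24 to 2.55 CPM. Zic4 had an unadjusted p of 0.0455 and an edgeR adjusted p of 0.999; the median log2 difference of both was 1.02, and the summed septal level was 8.85 to 13.9 CPM in control and 9.46 to 39.9 CPM in isolated libraries. Their part in the tachykinin values was not tested.

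The promoters of both peptide genes are shown as background, and their bearing on the levels or their spread was not tested. Each runs from 250 bases before to 50 after the start of the gene (RefSeq, GRCm38.p6, plus strand), with CGTCA, a core element bound by factors of the CREB family, or its complement TGACG in capitals. The motif was chosen with the sequences in view.
Tac1 chr6:7554811-7555110: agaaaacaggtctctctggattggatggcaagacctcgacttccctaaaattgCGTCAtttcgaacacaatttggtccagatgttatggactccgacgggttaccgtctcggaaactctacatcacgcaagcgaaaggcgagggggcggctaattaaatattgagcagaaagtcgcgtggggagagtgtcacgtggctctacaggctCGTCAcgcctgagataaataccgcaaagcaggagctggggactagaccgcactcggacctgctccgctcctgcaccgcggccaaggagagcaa
Tac2 chr10:127724228-127724527: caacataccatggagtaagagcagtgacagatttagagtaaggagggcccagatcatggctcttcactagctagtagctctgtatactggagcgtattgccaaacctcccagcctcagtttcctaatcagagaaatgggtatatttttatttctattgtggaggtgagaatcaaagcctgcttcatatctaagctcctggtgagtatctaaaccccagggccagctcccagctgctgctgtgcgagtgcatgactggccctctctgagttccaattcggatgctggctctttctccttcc
The search of both strands found 2 matches for Tac1, 0 for Tac2 and 1 each for Tacr1 and Tacr3, whose promoters are not shown. The window searched for Tacr1, 82402225 to 82402524 of chromosome 6, begins after the gene start given above (82402003). Of 32851 promoter windows of this length, 20.8% held at least 1 match and 5.01% at least 2. A match is a run of letters and not a measured binding site.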

How the data were processed

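The authors deposited 1 table per library with expected counts (estimated reads per gene, not normalized) and FPKM values, per the file headers. Per the submitters' processing notes the tools were HISAT, Bowtie2 and RSEM and the build mm10, with no versions or order. Strand use in counting is not stated in the sources. A further FPKM table of 6 columns was not used here, because no label gives its column codes. A gene absent from a table was given a count of 0, and the 1 entry per table without a symbol (at most 0.000947% of reads) was left out. Of 19943 identifiers 19899 matched RefSeq GRCm38.p6, the source of coordinates.

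Expected counts were rounded and tested in R 4.3.3 with edgeR 4.0.16 (filterByExpr, minimum count 10 and total 15, 15169 genes kept and 4774 removed; TMM factors 0.991 to 1.012; quasi-likelihood F-test without covariates; Benjamini-Hochberg adjustment over all genes tested, threshold 0.05). Standard errors were derived from the fold change and F. Log2 CPM for correlations and permutation tests used a prior count of 2. The striatal level is the mean log2 CPM of 13 markers without tachykinin genes. The fit was tested on simulated data. Alternatives used DESeq2 1.42.0, limma 3.58.1 on log2(FPKM + 1) and log2(FPKM + 0.1), no filter, other size factors, a replicate block, the striatal covariate and fewer libraries. Counts of reads are not counts of molecules, so counting limits cover counting error only.

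The genes and lists were chosen with earlier results of these data known. Named are the 4 tachykinin genes and their relatives, and the 3 genes most like each tachykinin gene. In each list the 3 genes with the highest mean CPM and any with an unadjusted p under 0.05 are named. Mme, Ece2, Dpp4, Isl1 and Pou4f1 were named after their values were seen. Promoters are from RefSeq and transcripts from GENCODE M21.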

Additional observations from a re-analysis of the deposited data

How the results depend on the processing

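None of the 4 tachykinin genes passed the threshold under any of the 14 other settings run. With single libraries left out the log2 difference ranged from -1.30 to 0.84 for Tac1, -0.045 to 0.16 for Tac2, -1.56 to 0.38 for Tacr1 and -1.12 to 0.72 for Tacr3. With the striatal level as a covariate that of Tacr3 changed sign to 0.15; the cause was not tested. DESeq2 called 1 gene of the whole table, against 0 with edgeR and 0 under every other setting. On log2(FPKM + 1) the log2 difference was -0.12 for Tac1 and -0.30 for Tacr1. The relation to the striatal level kept its sign in the 4 libraries left without control 2 and isolated 3. There r was 0.99 for Tac1, -0.95 for Tac2, 0.77 for Tacr1 and 0.77 for Tacr3. None of these passed (exact permutation p = 0.125, 0.125, 0.292 and 0.333), and 4 libraries give few orders to permute. For Tacr1 and Tacr3 r was also lower than over all 6 libraries (0.955 and 0.949).

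The labels number the replicates 1 to 3 in both groups. Deviations from the group means of same-numbered libraries correlated at 0.025, -0.27 and -0.49 over genes, so the numbers were not taken as pairs. With a replicate block the log2 differences were -0.23 for Tac1, 0.029 for Tac2, -0.61 for Tacr1 and -0.13 for Tacr3, and 0 genes of the table passed. Of 39 other tested genes named, with Ece2 and Dpp4 not counted, 29 changed sign under at least 1 of the 14 settings and 0 passed under any. The count of striatal markers lower in isolated libraries, 13 of 13, was 0 without control 2 and 11 to 13 without any other single library, a check chosen after seeing the data. Depth leaves Tac4 and Tacr2 without a comparison.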
